A study of Mus musculus with 48 samples.

Results

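Interferon-stimulated genes are the antiviral genes that cells turn on when interferon binds its receptor. Here 9 of them are described across the 4 groups of mice, chosen by name: *Ifit1*, *Ifit3*, *Isg15*, *Irf7*, *Bst2*, *Ifi27*, *Oasl2*, *Usp18* and *Rsad2*. All 9 were found among the 19601 genes of the batch-corrected tables, and all 9 had enough counts to be among the 14839 genes tested. Cells detect viral or misplaced self nucleic acid through sensors in the cytosol and in endosomes, and the sensors induce type I interferons. Secreted interferon binds its receptor on the same or neighbouring cells, and the signal reaches the nucleus, where it acts through interferon-stimulated response elements in the promoters of target genes. In the brain, microglia, astrocytes, endothelial cells and neurons can all respond to interferon, and interferon-responsive microglia are known from ageing and from mouse models of neurodegeneration.

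Bulk RNA-seq was carried out on the substantia nigra (SN) of male C57BL/6J mice injected on 1 side, into the right striatum, with sonicated preformed fibrils (PFF) of α-synuclein or with monomeric α-synuclein, and breathing 21% or 11% O2. PFF are aggregates that seed the aggregation of the mouse's own α-synuclein, and the monomer served as the control, so that every mouse in every group had an injection of α-synuclein and no uninjected group was analysed here. The mice were 17.3 weeks old at injection and 30.1 to 31.3 weeks old at harvest, which the dates in the labels put 90 to 98 days after injection, against a labelled 12 weeks. The paper describes 11% O2 from shortly after injection for 12 weeks, whereas the deposited design text gives 6 weeks at 21% O2 followed by 6 weeks at 11% O2, and the values below cannot tell which schedule was used. The whole SN was taken, not the pars compacta alone.

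Of 48 mice sequenced, 12 in each group, the study's authors left out 6 after a principal components analysis and analysed 42: 11 monomer and 12 PFF mice breathing 21% O2, and 9 monomer and 10 PFF mice breathing 11% O2. The batch-corrected counts sum to between 12360798 and 16566973 per mouse. Markers of dopaminergic neurons were present, with a median of 662 TPM (transcript level per gene, scaled for gene length and for depth) for *Th* and 1095 TPM for *Slc6a3*, and the summed level of 6 such markers ranged from 1062 to 5265 TPM between mice. Harvest fell on 3 dates, here called batches. Batch 2 held no monomer mice breathing 11% O2 and batch 3 no monomer mice breathing 21% O2, so that only batch 1 held all 4 groups.

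The response element is a short repeat in DNA, and the letters GAAANNGAAA, searched on both strands, are a simple form of it. RefSeq promoter windows on GRCm38.p6, from 250 bases before to 50 after a gene's start, were at hand for 7 of the 9 genes, all except *Usp18* and *Ifi27*. The letters were found in 5 of these 7 windows, against 3.99% of the 27025 genes with a window and 15 of 37 other interferon-stimulated genes. The 5 are shown because the pathway is known to act through this element. No binding was measured. Each stretch is 30 bases, 5′ to 3′ on the strand of the gene, with the matched letters in capitals, and a match to the opposite strand reads TTTCNNTTTC:
Isg15: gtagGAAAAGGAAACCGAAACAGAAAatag
Bst2: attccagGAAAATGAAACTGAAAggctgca
Rsad2: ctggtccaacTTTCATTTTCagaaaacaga
Ifit3 distal: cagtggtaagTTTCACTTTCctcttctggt
Ifit3 proximal: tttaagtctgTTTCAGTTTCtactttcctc
Ifit1: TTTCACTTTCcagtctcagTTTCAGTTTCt

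The *Isg15* stretch, chr4:156200871-156200900 on the minus strand, holds 3 overlapping matches between 78 and 57 bases before the start. In *Bst2*, chr8:71537580-71537609 on the minus strand, 2 overlapping matches lie between 130 and 115 bases before it. The *Rsad2* match, chr12:26456553-26456582 on the minus strand, lies 120 to 111 bases before the start. *Ifit3* has 1 match at 156 and 1 at 122 bases before the start, in chr19:34583363-34583392 and chr19:34583397-34583426 on the plus strand. *Ifit1*, chr19:34640785-34640814 on the plus strand, has 2 matches between 104 and 76 bases before the start. All of these lie upstream of the transcribed sequence. *Ifit1* and *Ifit3* thus share the letters TTTCACTTTC followed by TTTCAGTTTC in the same order, at different distances. The windows of *Irf7* and *Oasl2* held no match, which says only that these letters are not in these windows.

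The genes lie on 7 chromosomes of GRCm38. *Ifit3* (chr19:34583531-34588731) and *Ifit1* (chr19:34640871-34650009) are neighbours on chromosome 19, and *Rsad2* (chr12:26442746-26456452) and *Ifi27* (chr12:103434211-103440239) are both on chromosome 12. The others are *Isg15* (chr4:156199424-156200818), *Oasl2* (chr5:114896936-114912234), *Usp18* (chr6:121245906-121270917), *Irf7* (chr7:141262706-141266481) and *Bst2* (chr8:71534255-71537456). Counting used no strand, and exons of *Irf7* overlap those of *Phrf1* and exons of *Usp18* those of *Gm44148* on the opposite strand, so their reads cannot be told apart there. Of the 150-base stretches of *Ifit3* transcripts, 18.5% also occur in the paralog *Ifit3b*, so that the split of reads between both is uncertain. *Ifit1* shared 1.24% of its stretches with *Ifit1bl2*, and no other member shared any.

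Levels were compared between genes as batch-corrected TPM. *Ifi27*, which encodes a small membrane protein, had the highest median over the 42 mice, 122 TPM, followed by *Ifit3* at 46.3 TPM and *Bst2* at 30.9 TPM. *Rsad2* had the lowest, 2.40 TPM, behind *Irf7* at 2.98 TPM. The median count per mouse was 676.5 for *Ifi27* and 38.5 for *Rsad2*, so the low members rest on few reads per mouse. All 9 were detected in every mouse.

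*Irf7* encodes the transcription factor that amplifies the type I interferon response. Its lowest, median and highest TPM were 1.57, 2.57 and 4.57 in monomer mice breathing 21% O2, 1.63, 3.00 and 5.0 in PFF mice breathing 21% O2, 2.04, 3.54 and 7.41 in monomer mice breathing 11% O2, and 2.29, 3.43 and 6.68 in PFF mice breathing 11% O2. Both groups breathing 11% O2 had the higher medians, but the ranges of all 4 groups overlapped.

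*Ifit1* and *Ifit3* encode proteins with tetratricopeptide repeats. IFIT1 binds viral RNA that lacks the host's cap methylation, and among the human proteins IFIT3 stabilizes IFIT1. *Ifit3* had the values 34.4, 44.3 and 61.0 TPM in monomer mice breathing 21% O2, 32.6, 52.0 and 103 TPM in PFF mice breathing 21% O2, 24.5, 46.3 and 87.8 TPM in monomer mice breathing 11% O2, and 28.4, 43.5 and 64.5 TPM in PFF mice breathing 11% O2. For *Ifit1* they were 3.90, 6.49 and 10.2 TPM, 2.73, 6.90 and 13.2 TPM, 3.74, 5.92 and 15.2 TPM, and 3.93, 6.42 and 12.6 TPM in the same order of groups. The medians of *Ifit1* lay within a narrow band, and for both genes the PFF mice breathing 21% O2 had the highest median.

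*Isg15* encodes a ubiquitin-like protein that is attached to other proteins, and *Usp18* the protease that removes it and that also dampens signalling at the interferon receptor. With the groups in the same order, *Isg15* had 10.7, 13.3 and 24.9 TPM, 11.4, 13.3 and 25.0 TPM, 13.3, 16.6 and 25.6 TPM, and 10.6, 16.4 and 35.9 TPM. *Usp18* had 3.58, 4.50 and 6.37 TPM, 2.40, 4.97 and 9.40 TPM, 3.45, 4.73 and 11.5 TPM, and 2.38, 5.26 and 7.95 TPM. *Isg15* was thus higher by median in both groups breathing 11% O2, whereas the *Usp18* medians stayed between 4.50 and 5.26 TPM.

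The remaining members act against viruses at other steps. *Bst2* encodes tetherin, which holds budding virus particles at the cell surface, and its values were 16.5, 29.0 and 59.7 TPM, 19.3, 32.3 and 60.1 TPM, 11.8, 34.1 and 41.2 TPM, and 14.7, 31.5 and 48.5 TPM. *Oasl2*, of the oligoadenylate synthetase-like family, had 2.62, 4.09 and 8.86 TPM, 2.44, 4.86 and 12.6 TPM, 2.90, 5.41 and 10.9 TPM, and 2.87, 5.74 and 9.70 TPM. *Rsad2* encodes viperin, an enzyme that makes a chain-terminating nucleotide, and had 1.17, 2.00 and 4.76 TPM, 1.25, 2.34 and 4.81 TPM, 1.17, 2.72 and 7.85 TPM, and 0.856, 2.41 and 5.50 TPM. For *Ifi27* the values were 90.4, 120 and 142 TPM, 86.7, 124 and 163.7 TPM, 90.7, 122 and 176.7 TPM, and 106, 121 and 153 TPM. Monomer mice breathing 21% O2 had the lowest mean of the 4 groups for 8 of the 9 genes, all except *Ifit3*. For each of the 9 genes the ranges overlapped in each of the 4 comparisons of groups. How many of all genes overlap in this way was not counted, so the overlap is no trait particular to these genes. In the order of the means, neighbouring groups differed by less than their spread for every member.

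**Figure D1:**
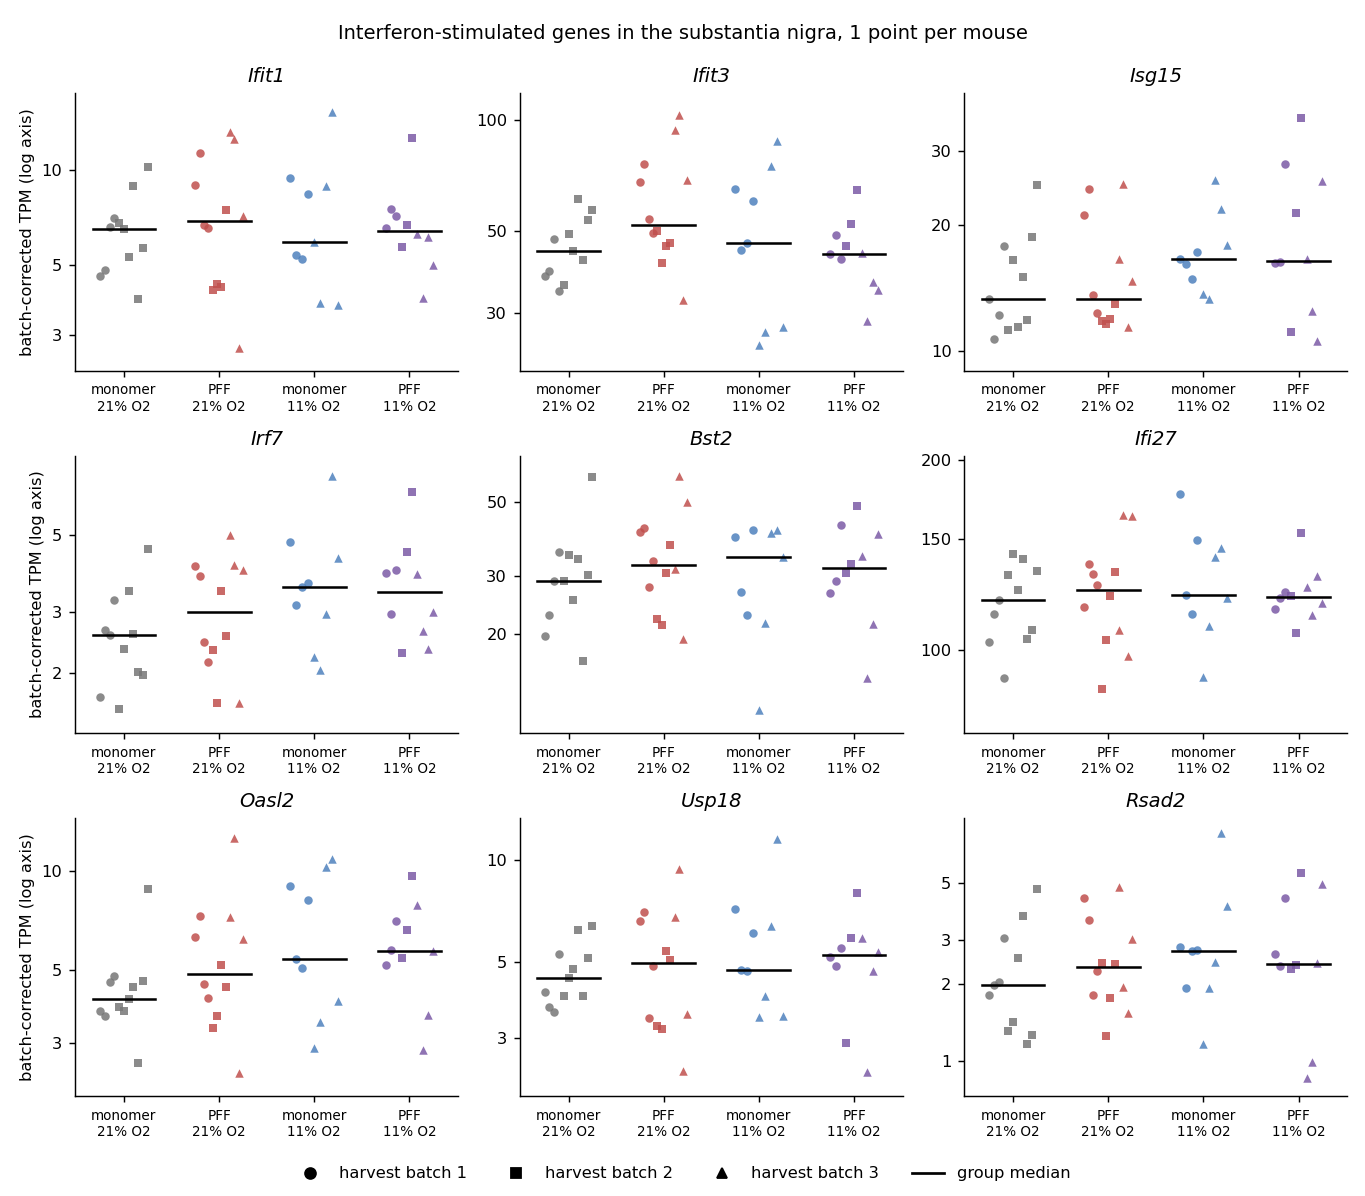
Batch-corrected TPM of the 9 genes on log axes, 1 point per mouse (n = 11, 12, 9 and 10 from left to right), with marker shapes for the 3 harvest batches and a line at each group's median. The clouds of the 4 groups overlap in every panel, from *Ifi27* at a median of 122 TPM to *Rsad2* at 2.40 TPM, and the highest mouse exceeds the lowest by 2.04-fold (*Ifi27*) to 9.18-fold (*Rsad2*).

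The spread between mice was large for these genes. The biological coefficient of variation that edgeR estimated per gene was between 0.154 (*Ifi27*) and 0.452 (*Rsad2*), against a median of 0.0861 over all genes tested. Between 83.2% and 98.2% of genes had a lower value than the member.

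The first comparison, PFF against monomer in mice breathing 21% O2, asked what α-synuclein aggregation does in normal air. All 9 members had a positive log2 fold change, with a median of 0.21 beside 0.00085 over all genes, but none was called (0 of 9, against 3.7% of the genes tested in either direction). Positive values made up 50.4% of all genes tested. As described below, the 9 genes varied together between mice, so their signs are not independent of each other. To be called, a gene needed an edgeR adjusted p below 0.05 and a log2 fold change over 0.25 in size. The largest difference was that of *Ifit3*, 0.43 ± 0.18 (SE) with an adjusted p of 0.143 and a 95% interval from 0.08 to 0.79. It was the only member with an unadjusted edgeR p under 0.05, against 22.4% of all genes tested. *Oasl2* followed at 0.35 ± 0.23 (adjusted p = 0.377), *Irf7* at 0.27 ± 0.21 and *Ifit1* at 0.24 ± 0.23. *Rsad2* was at 0.21, *Bst2* at 0.20, *Usp18* at 0.13, and *Isg15* and *Ifi27* at 0.08 each. DESeq2 and limma called none of the 9 either. Without PFF 21% O2 replicate 10 the 9 values remained positive at a median of 0.14, but *Oasl2* was at 0.17, *Bst2* at 0.10, *Ifi27* at 0.03, *Usp18* at 0.01 and *Isg15* at 0.00013. Microglia markers were positive in 10 of 10 here (median 0.13, none called), with a summed level of 1234 to 2264 TPM in monomer and 1285 to 2499 TPM in PFF mice. Leptomeningeal and choroid plexus markers were positive in 6 of 7 (median 0.29, none called), at 24.5 to 131 TPM and 20.8 to 348 TPM. Of the endothelial markers 5 of 8 were positive (median 0.09, 1 called), at 257 to 360 TPM and 217.8 to 388 TPM, and of the oligodendrocyte markers 6 of 6 (median 0.05, none called), at 7899 to 10901 TPM and 7929 to 10425 TPM. Astrocyte markers were positive in 6 of 7 (median 0.04) and dopaminergic neuron markers in 4 of 6 (median 0.07), none called. Both blood monocyte and neutrophil markers that were tested, of 7, were positive (median 0.88, none called), and the 7 summed to 1.06 to 7.83 TPM and 1.39 to 13.8 TPM. The 2 tested were *Ccr2* (0.63 ± 0.38) and *Lcn2* (1.13 ± 0.94), each near the limit of detection at a median of 0.26 TPM. The part of all these markers in the values of the 9 genes was not tested.

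Within batches the direction differed. In batch 1, with 4 mice in both groups, the counts before correction gave positive values for all 9 genes, with 0.78 ± 0.20 for *Ifit3* and 0.75 ± 0.31 for *Ifit1*. In batch 2, with 4 PFF and 7 monomer mice, *Ifit3* (0.04) and *Oasl2* (0.06) were positive and the other 7 negative, down to -0.28 ± 0.23 for *Isg15*. The positive sign of 7 of the 9 genes at 21% O2 was therefore seen in batch 1 and not in batch 2, and batch 3 held PFF mice only at this O2 level.

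In mice breathing 11% O2, PFF against monomer gave smaller values on both sides of 0. Of the 9 genes, 2 were positive and 7 negative, with a median log2 fold change of -0.09 beside -0.00060 over all genes. Over all genes tested, 49.6% were positive. The range ran from -0.20 ± 0.20 for *Ifit3* to 0.16 ± 0.20 for *Isg15*, and every adjusted p was 1.00 to 3 digits. None was called, as for all genes tested (0%): edgeR called 0 of 14839 genes, 581 had an unadjusted p under 0.05, and DESeq2 called 1. No member had an unadjusted p under 0.05. The intervals were wide, and for *Ifit3* the 95% interval was -0.59 to 0.20. Within batches, *Rsad2* was at 0.60 ± 0.42 in batch 1 and -0.55 ± 0.37 in batch 3, and *Ifit3* at -0.32 in both. Without monomer 11% O2 replicate 10 the sign turned for *Ifit1* (0.10), *Irf7* (0.13), *Rsad2* (0.22) and *Usp18* (0.03). Endothelial markers were negative in 8 of 8 (median -0.17) and oligodendrocyte markers in 6 of 6 (median -0.11). Leptomeningeal and choroid plexus markers were negative in 7 of 7 (median -0.35). Microglia markers were positive in 6 of 10 (median 0.02). Astrocyte markers were negative in 5 of 7 (median -0.0031) and dopaminergic neuron markers in 5 of 6 (median -0.07). Both tested blood monocyte and neutrophil markers were negative (median -0.28). No marker of these lists was called, and their part in the values of the 9 genes was not tested.

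The comparison of 11% against 21% O2 in monomer mice asked what hypoxia does without PFF. It used the same monomer mice breathing 21% O2 as the first comparison, so that the values of both comparisons are not independent. Of its mice, 7 breathing 21% O2 were of batch 2 and 5 breathing 11% O2 of batch 3, where the other group was missing. Again all 9 log2 fold changes were positive, with a median of 0.23 beside -0.0060 over all genes, and none was called (0 of 9, against 7.23% of all genes tested). The share of positive values over all genes tested was 47.9%. *Oasl2* stood at 0.56 ± 0.24 (adjusted p = 0.119) and *Irf7* at 0.54 ± 0.22 (adjusted p = 0.10). These were the 2 members with an unadjusted edgeR p under 0.05, against 27.7% of all genes tested. *Rsad2* was at 0.44 ± 0.31 and *Usp18* at 0.29 ± 0.21, followed by *Isg15* (0.23), *Ifit1* (0.20), *Ifit3* (0.16), *Ifi27* (0.13) and *Bst2* (0.03). DESeq2 and limma called none of the 9 in this comparison.

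Single mice changed this comparison in both directions. Without monomer 11% O2 replicate 10, 7 of the 9 genes were positive at a median of 0.11, with *Irf7* at 0.36, *Rsad2* at 0.13, *Usp18* at 0.09, *Ifit3* at 0.02, *Ifit1* at -0.0055 and *Bst2* at -0.03, and none was called. In monomer mice breathing 21% O2, replicate 12 had the highest level of 7 of the 9 genes in its group, with 8.86 TPM of *Oasl2* where the next mouse had 4.80 TPM, 4.57 TPM of *Irf7* against 3.46 TPM, and 59.7 TPM of *Bst2* against 35.3 TPM. Without it, *Oasl2* was called at 0.72 (adjusted p = 0.0382) and *Irf7* at 0.66 (adjusted p = 0.0397). Leaving out any other single mouse called no member in any comparison. Batch 1 was the only batch with both groups, and there all 9 genes were positive on the counts before correction, with *Oasl2* at 0.87 ± 0.30, *Ifit3* at 0.61 ± 0.20, *Irf7* at 0.61 ± 0.30 and *Rsad2* at 0.07 ± 0.41. Endothelial markers moved in the same comparison, with 8 of 8 called higher at a median of 0.58, and the range of their summed level went from 257 to 360 TPM at 21% O2 to 336 to 732 TPM at 11% O2. Microglia markers were positive in 10 of 10 at a median of 0.18, with none called, and their summed level ranged from 1234 to 2264 TPM and from 1478 to 2447 TPM. Oligodendrocyte markers were positive in 6 of 6 (median 0.17, 2 called), at 7899 to 10901 TPM and 8266 to 12430 TPM. Astrocyte markers were positive in 5 of 7 (median 0.10) and dopaminergic neuron markers in 5 of 6 (median 0.17), none called. Leptomeningeal and choroid plexus markers were positive in 6 of 7 (median 0.46, none called), at 24.5 to 131 TPM and 22.6 to 211.2 TPM. Both tested blood monocyte and neutrophil markers were positive (*Ccr2* 0.66 ± 0.40, *Lcn2* 1.52 ± 0.96, median 1.09, none called), with the 7 at 1.06 to 7.83 TPM and 1.35 to 22.8 TPM. The part of these cells in the values of the 9 genes was not tested, and in whole tissue fewer cells of a type cannot be told apart from less RNA per cell.

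**Figure D2:**
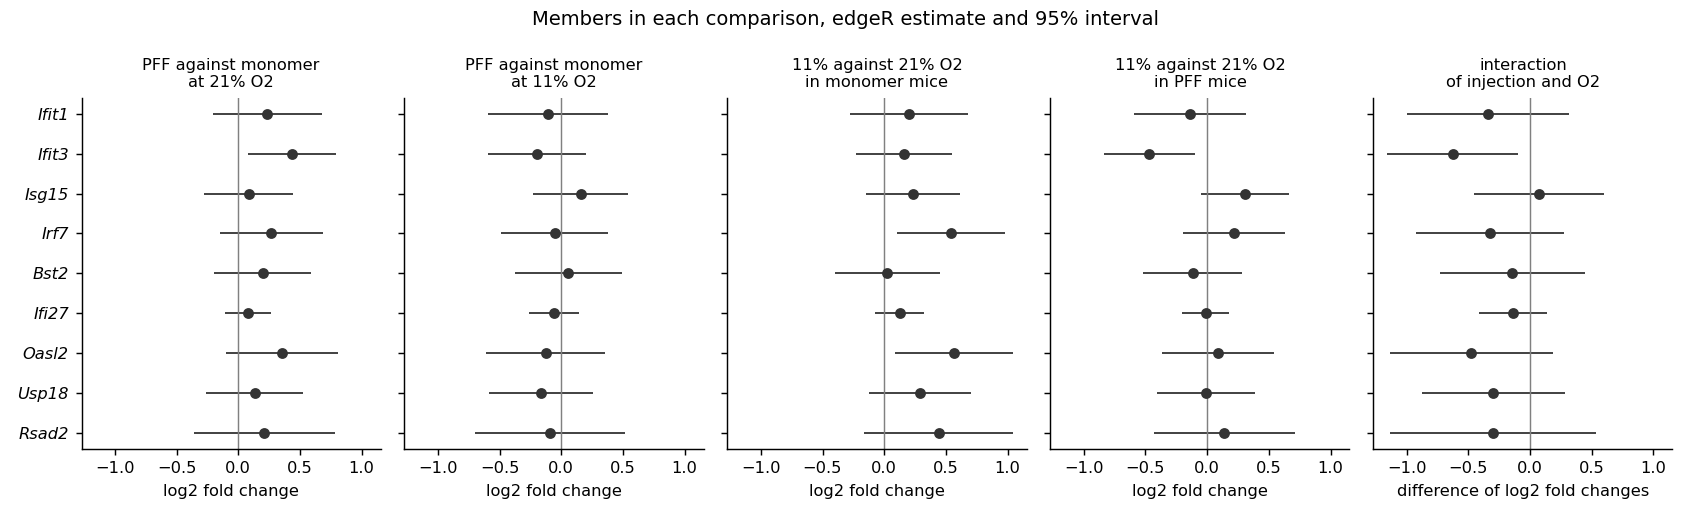
The edgeR log2 fold change of each of the 9 genes in the 5 comparisons, with its 95% interval, and for the interaction the difference of both log2 fold changes. All 9 points lie above 0 for PFF at 21% O2 (median 0.21) and for 11% O2 in monomer mice (median 0.23), and 8 of 9 lie below 0 for the interaction (median -0.30), with intervals that include 0 for most genes.

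In PFF mice, 11% against 21% O2 gave 4 positive and 5 negative values, with a median of -0.0081 beside -0.0063 over all genes. Here 46.8% of all genes tested were positive. None of the 9 was called, against 0.58% of all genes tested. *Ifit3* was lower at 11% O2 by estimate, -0.47 ± 0.19 (adjusted p = 0.339). It was the only member with an unadjusted edgeR p under 0.05, against 10.7% of all genes tested. *Isg15* was at 0.31 ± 0.18, *Irf7* at 0.22 ± 0.21 and *Rsad2* at 0.14 ± 0.29, and the other 5 lay between -0.14 and 0.09. This contrast could be taken in all 3 batches, and it turned its sign between them. Batch 2 was positive for all 9 genes, with *Isg15* at 0.79 ± 0.27 and *Irf7* at 0.72 ± 0.31. Batch 3 was negative for 8 of 9, with *Ifit3* at -0.90 ± 0.31. *Ifit3* was at -0.49 ± 0.22 in batch 1 and at 0.07 ± 0.12 in batch 2. Endothelial markers were positive in 8 of 8 (median 0.35, 2 called) and microglia markers in 9 of 10 (median 0.03, none called). Oligodendrocyte markers were positive in 2 of 6 (median -0.01) and leptomeningeal and choroid plexus markers in 1 of 7 (median -0.34), none called. Astrocyte markers were positive in 4 of 7 (median 0.01) and dopaminergic neuron markers in 3 of 6 (median 0.03), none called. Of the 2 blood monocyte and neutrophil markers tested, 1 was positive (median -0.06, none called). Their part in the values of the 9 genes was not tested.

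**Figure D3:**
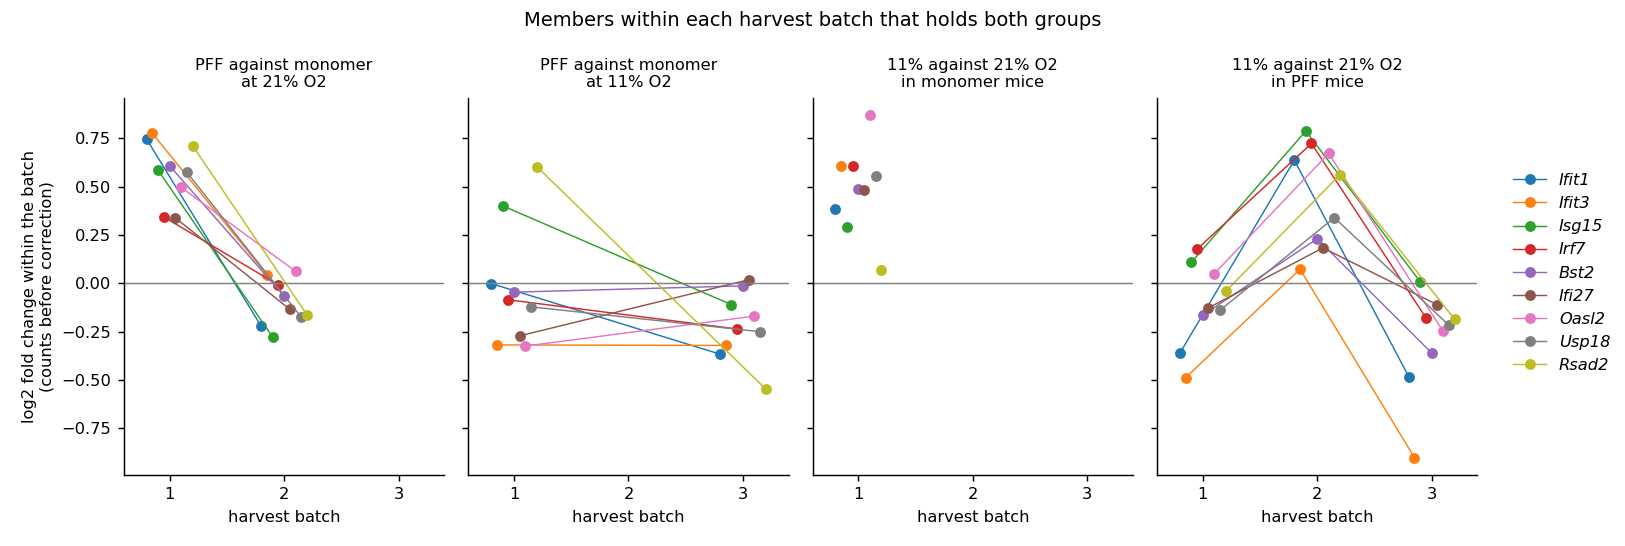
Log2 fold change of each of the 9 genes, 1 line per gene, within each harvest batch that held both groups, from edgeR on the counts before correction. In PFF mice, 11% against 21% O2 runs from 0.79 for *Isg15* in batch 2 down to -0.90 for *Ifit3* in batch 3, and PFF against monomer at 21% O2 runs from 0.78 for *Ifit3* in batch 1 to -0.28 for *Isg15* in batch 2.

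The interaction tests whether the effect of PFF differed between 11% and 21% O2. It was negative for 8 of 9 genes, *Isg15* (0.07) being the exception, and its median was -0.30 beside -0.00057 over all genes. Positive values made up 49.7% of all genes tested. The interaction uses the same monomer mice breathing 21% O2 as the comparisons of PFF at 21% O2 and of 11% O2 in monomer mice. Its values are therefore not independent of theirs. No member was called, against 2.14% of all genes tested. *Ifit3* had the largest estimate, -0.63 ± 0.27 (adjusted p = 0.238), ahead of *Oasl2* at -0.48 ± 0.34 (adjusted p = 0.535). Only *Ifit3* of the 9 had an unadjusted edgeR p under 0.05, against 15.4% of all genes tested. Without monomer 11% O2 replicate 10, *Rsad2* was at 0.01 instead of -0.30. DESeq2 and limma called no member in this or in the preceding comparison. Markers of other cells had the same sign in the interaction: microglia markers were negative in 10 of 10 (median -0.12, none called), endothelial markers in 7 of 8 (median -0.28, none called), leptomeningeal and choroid plexus markers in 7 of 7 (median -0.70, none called), and oligodendrocyte markers in 6 of 6 (median -0.16, 1 called). Astrocyte markers were negative in 6 of 7 (median -0.04) and dopaminergic neuron markers in 5 of 6 (median -0.13), none called. Both tested blood monocyte and neutrophil markers were negative too (*Ccr2* -1.10 ± 0.55, *Lcn2* -1.21 ± 1.27, median -1.15, none called). Their part in the estimates of the 9 genes was not tested.

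The 9 genes varied together between mice of the same group. After the group mean was subtracted from log2 CPM (counts scaled for depth), all 36 pairs were positively correlated over 42 mice, from r = 0.29 (*Ifi27* and *Rsad2*) to 0.88 (*Bst2* and *Oasl2*), with a median of 0.69. Within each group alone all 36 pairs were positive too, with medians of 0.61, 0.77, 0.70 and 0.68 in the order of groups used above. On the counts before correction, with group and batch means subtracted, the pairs ran from 0.18 to 0.86 with a median of 0.66. *Oasl2* had the highest mean r with the other 8 (0.76) and *Ifi27* the lowest (0.52). The pairs share their libraries, so these values describe the mice and carry no test.

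*Irf7* was set against each of the other 8 genes across the 42 mice, in 2-sided permutation tests within groups, adjusted over the 8 relations. Pearson's r was 0.75 for *Oasl2* (Spearman's rho 0.75), 0.73 for *Usp18* (0.72), 0.70 for *Ifit1* (0.62) and *Rsad2* (0.71), 0.69 for *Bst2* (0.67), 0.67 for *Ifit3* (0.64) and 0.64 for *Isg15* (0.66), and the permutation p for these r, adjusted, was 1.6e-05 or 2.29e-05. The smallest p that the 100000 resamples can give is 1e-05. *Ifi27* had r = 0.45 (permutation p = 0.00477 after adjustment) and rho = 0.43 (permutation p = 0.00795 after adjustment). For the other 7 genes the adjusted permutation p of rho was between 1.6e-05 and 6.86e-05. Without the 2 mice farthest from the median of *Irf7*, monomer 11% O2 replicate 10 and PFF 11% O2 replicate 8, r lay between 0.39 (*Ifi27*) and 0.72 (*Oasl2*). With group and batch means subtracted from the counts before correction, r was 0.39 for *Ifi27* and between 0.62 and 0.75 for the other 7.

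The extreme values were concentrated in a few mice. In 30 of 42 mice, no gene had one of its 5 highest values, while 3 mice held 21 of the 45 such places. PFF 11% O2 replicate 8 was among the highest 5 for 8 genes, PFF 21% O2 replicate 10 for 7 and monomer 11% O2 replicate 10 for 6. At the other end, PFF 21% O2 replicate 11 was among the lowest 5 for 7 genes and PFF 11% O2 replicate 10 for 6. No mouse had members in both sets. By group, monomer mice breathing 21% O2 held 3 of the 45 highest places, all of them replicate 12, PFF mice breathing 21% O2 held 16, and the monomer and PFF mice breathing 11% O2 held 14 and 12. Of the lowest places, monomer and PFF mice breathing 21% O2 held 13 each, and those breathing 11% O2 held 9 and 10. The genes vary together, so the places held by 1 mouse are not independent of each other.

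**Figure D4:**
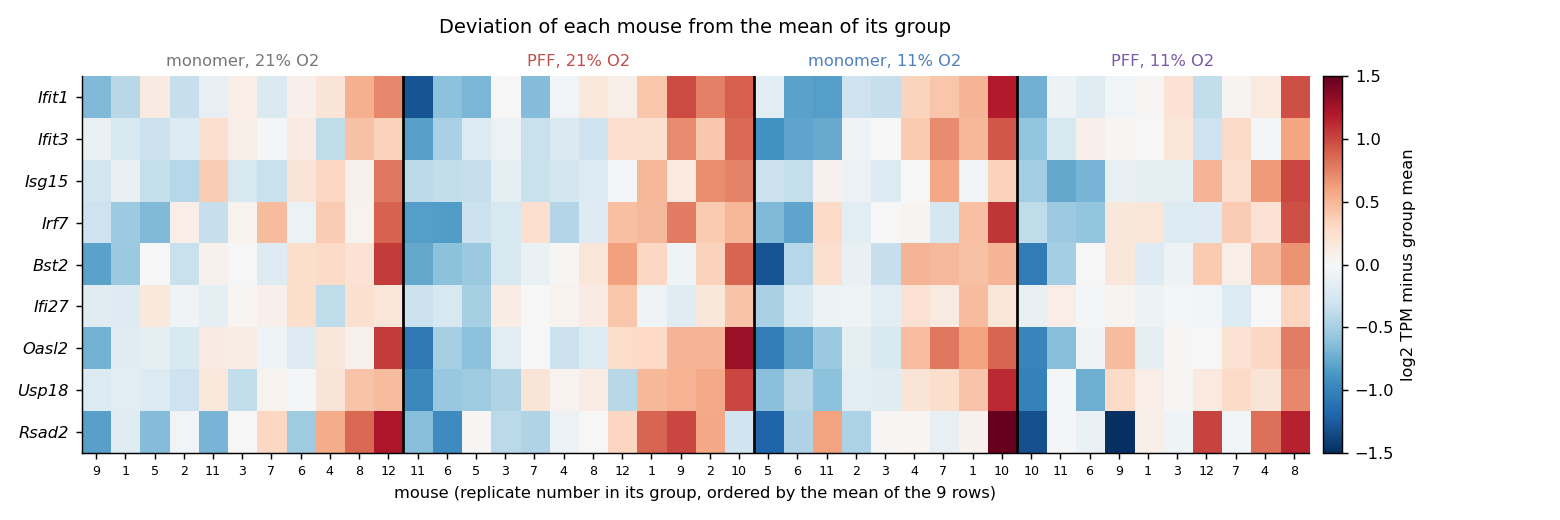
Heat map of log2 TPM minus the group mean for the 9 genes (one per row) in the 42 mice (columns, by group, ordered by the mean over the genes). Columns tend to be high or low throughout, as in PFF 11% O2 replicate 8, among the highest 5 mice for 8 genes, and PFF 21% O2 replicate 11, among the lowest 5 for 7.

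Markers of other cell types were set against *Irf7* in the same way, a choice made after seeing the data. Over 8 marker lists and the total count, r with *Irf7* ran from -0.17 for dopaminergic neuron markers to 0.26 for microglia markers, and no relation passed (over 9 relations, the lowest adjusted permutation p was 0.546 for r and 0.395 for rho). Lymphocyte markers were near the limit of detection: none of 11 passed the filter, their summed level was between 0.945 and 8.74 TPM, and *Cd3d* was at 0 in 24 of 42 mice and *Gzmb* and *Ms4a1* in 21. The summed level of 7 blood monocyte and neutrophil markers lay between 1.06 and 22.8 TPM, and r with *Irf7* was 0.09. Leptomeningeal and choroid plexus markers, which mark neighbouring tissue, ranged from 20.8 to 348 TPM, with r = -0.12.

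The genes whose pattern was most like that of the 9 were found by the mean r with them, over 42 mice and 14821 other genes. The first 12 were *Gbp3* (mean r 0.74), *Ifi44* (0.73), *Rtp4* (0.72), *Ddx58* (0.70), *Gm4951* (0.69), *Nlrc5* (0.68), *Rnf213* (0.68), *Oas1a* (0.68), *Iigp1* (0.67), *Ifi204* (0.66), *Ifit3b* (0.66) and *Parp14* (0.65). *Ddx58* encodes the RNA sensor RIG-I, *Oas1a* an oligoadenylate synthetase, *Gbp3* a guanylate-binding GTPase and *Nlrc5* the activator of MHC class I genes. Of the 12, 6 were in a list of other interferon-stimulated genes, and the paralog *Ifit3b* shares reads with *Ifit3*. The median of the mean r was 0.48 over the 42 genes of that list that were compared and -0.0055 over all genes.

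Several of the 6 mice left out of the corrected tables were high for these genes. In TPM before correction, between 4 and 6 of the 6 lay above the median of the 42 kept mice for every member. That median was taken over all 3 batches, which differed in level before correction. Monomer 11% O2 replicate 9 was among the lower ones, under the kept median for *Isg15*, *Irf7*, *Usp18* and *Rsad2*. Its 6.48 TPM of *Oasl2* lay above the kept median but under the median of the kept mice of its own batch 3, 7.17 TPM. The median of the 6 was 11.0 TPM for *Ifit1* against 5.82 TPM in the kept mice, 9.76 against 4.88 TPM for *Oasl2*, and 48.2 against 28.3 TPM for *Bst2*. PFF 11% O2 replicate 5 had the highest *Ifit1* (20.5 TPM), *Ifit3* (106 TPM), *Isg15* (35.8 TPM) and *Usp18* (10.7 TPM) of all 48, and monomer 11% O2 replicate 8 the highest *Bst2* (61.2 TPM), *Ifi27* (192.8 TPM) and *Oasl2* (12.6 TPM). For 7 of the 9 genes the highest mouse of the 48 was therefore a left-out one. The authors chose the 6 as outliers in an analysis of highly variable genes. Neither this count nor the one above the kept median was made over all genes. Both are therefore no trait particular to the 9. With all 48 mice, counts before correction and batch as a covariate, the median log2 fold change of the 9 genes was 0.22 for PFF at 21% O2, 0.0031 for PFF at 11% O2 and 0.32 for 11% O2 in monomer mice. For 11% O2 in PFF mice it was 0.14, with 8 of 9 positive, and for the interaction -0.22. The 6 were 3 monomer and 2 PFF mice breathing 11% O2 and 1 monomer mouse breathing 21% O2. The 3 monomer mice breathing 11% O2 were of batch 3. PFF 11% O2 replicate 5 and monomer 21% O2 replicate 10 were of batch 2, and PFF 11% O2 replicate 2 was of batch 1. Among the 6, PFF 11% O2 replicate 2 had a total of 3134594 counts, and the other 5 had between 13265802 and 16748035.

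Levels before correction also differed by batch. The median of *Oasl2* was 3.43, 4.17 and 7.17 TPM in batches 1, 2 and 3, that of *Bst2* 22.2, 27.6 and 37.1 TPM, and that of *Irf7* 2.64, 2.22 and 3.66 TPM. After the authors' correction the *Oasl2* medians were 5.19, 4.45 and 5.72 TPM. The batches differ in the groups they hold, so these medians mix batch and group.

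The interferons themselves were not measurable. Of 19 ligand genes, 7 were at 0 in all 48 mice before correction, no ligand exceeded 1 count in any mouse, and the 19 together had 28 counts. None of the 12 in the corrected table passed the filter, so a change in their transcripts was not detectable at this depth.

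Other interferon-stimulated genes were taken from a list of 50, of which 42 were tested. With PFF at 21% O2, 35 were positive and 7 negative at a median of 0.13 on the log2 scale, and 4 were called, 3 higher and 1 lower, against 3.7% of all genes. *Sp100*, a component of nuclear bodies, had medians of 2.81 TPM in monomer and 3.61 TPM in PFF mice and rose by 0.46 ± 0.11 (adjusted p = 0.00739). *Xaf1*, a pro-apoptotic gene, went from 13.4 to 16.6 TPM and rose by 0.28 ± 0.07 (adjusted p = 0.0102), and without PFF 21% O2 replicate 10 it was no longer called (adjusted p = 0.0288, with a log2 fold change under 0.25). *Slfn8*, of the Schlafen family, went from 2.10 to 2.78 TPM and rose by 0.45 ± 0.14 (adjusted p = 0.0445), a call kept in 27 of the 42 fits without 1 mouse, with the largest adjusted p, 0.101, without PFF 21% O2 replicate 10. *Znfx1*, an RNA-binding helicase, went the other way, from 32.3 to 26.3 TPM, and fell by 0.30 ± 0.06 (adjusted p = 0.000402). Thus the genes called from the list did not all move in the same direction.

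With 11% O2 in monomer mice, 34 of the 42 were positive with a median of 0.23 and 4 were called, all higher, against 7.23% of all genes. Positive values made up 47.9% of all genes there. *Sp100* rose by 0.68 ± 0.12 (adjusted p = 9.85e-05), with medians of 2.81 and 4.24 TPM. *Uba7*, the enzyme that activates ISG15 for its attachment, rose by 0.48 ± 0.13 (adjusted p = 0.0102), from 3.02 to 4.75 TPM. *Eif2ak2*, the RNA-activated kinase PKR, rose by 0.27 ± 0.09 (adjusted p = 0.0437) and *Parp9* by 0.30 ± 0.10 (adjusted p = 0.0475), and these calls were kept in 31 and 24 of the 42 fits without 1 mouse, with largest adjusted p of 0.113 without monomer 11% O2 replicate 10 and 0.122 without monomer 11% O2 replicate 7. In PFF mice, 11% O2 gave 23 positive and 19 negative values (median 0.0079) and no call. *Samhd1* (-0.16, adjusted p = 0.103) and *Ifit3b* (-0.37, adjusted p = 0.410) had the smallest p. PFF at 11% O2 gave 9 positive and 33 negative values (median -0.06), no call, and the smallest p for *Parp9* (-0.19) and *Znfx1* (-0.11). By edgeR, 4 and 0 of the 42 had an unadjusted p under 0.05 in these 2 comparisons, against 10.7% and 3.92% of all genes. The interaction was negative for 38 of 42 (median -0.19), and *Xaf1* alone was called, at -0.39 ± 0.10 (adjusted p = 0.0296). Its call was kept in 37 of the 42 fits without 1 mouse, with the largest adjusted p, 0.0615, without monomer 11% O2 replicate 1.

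Among 18 genes of interferon receptors and signalling, *Il10rb*, a chain of the receptors for interferon lambda and interleukin 10, was called higher with 11% O2 in monomer mice, at 0.33 ± 0.08 (adjusted p = 0.00563) and from 8.04 to 9.75 TPM. It was the only call for this list in the 5 comparisons, against 7.23% of all genes in that comparison. The smallest p elsewhere were those of *Irf1* (0.24) and *Irf9* (-0.16) for PFF at 21% O2, *Socs1* (0.30) and *Stat2* (-0.07) for PFF at 11% O2, *Ifnar1* (0.14) and *Ifnlr1* (0.33) for 11% O2 in PFF mice, and *Il10rb* (-0.24) and *Irf1* (-0.23) for the interaction. By edgeR these 4 comparisons had 3, 0, 2 and 1 genes of the list at an unadjusted p under 0.05, against 22.4%, 3.92%, 10.7% and 15.4% of all genes.

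Of 13 nucleic acid sensors and adaptors tested, *Tlr9*, the endosomal receptor for unmethylated DNA, was called with 11% O2 in monomer mice, where it rose by 0.51 ± 0.10 (adjusted p = 0.000406) from 3.55 to 4.76 TPM. It too was the only call for its list, against the same 7.23%. The smallest p in the other 4 comparisons belonged to *Tlr9* (0.19) and *Cgas* (0.25) for PFF at 21% O2, *Ikbke* (-0.25) and *Mavs* (-0.12) for PFF at 11% O2, *Dhx58* (0.16) and *Tlr9* (0.12) for 11% O2 in PFF mice, and *Tlr9* (-0.39) and *Ifih1* (-0.22) for the interaction. There, 1, 2, 0 and 1 genes of the list had an unadjusted p under 0.05 by edgeR, beside the same shares of all genes.

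GTPases induced mainly by interferon gamma, 13 of them, gave 11 positive values for PFF at 21% O2 (median 0.21) and 11 for 11% O2 in monomer mice (median 0.19). In these comparisons 50.4% and 47.9% of all genes were positive. *Gbp4* was called in the first, at 0.60 ± 0.17 (adjusted p = 0.0192), with medians of 1.90 and 2.81 TPM. *Gbp9* was called in the second, as 1 of 13 in both cases against 3.7% and 7.23% of all genes, at 0.63 ± 0.15 (adjusted p = 0.00381), with medians of 4.69 and 7.17 TPM. PFF at 11% O2 was negative for 11 of 13 (*Gbp9* -0.26 and *Gbp6* -0.19 with the smallest p), as was 11% O2 in PFF mice (*Gbp5* -0.31 and *Tgtp1* -0.28), and 12 of 13 were negative for the interaction (*Gbp9* -0.65, adjusted p = 0.0860, and *Gbp4* -0.61). None was called in these 3, where edgeR gave 0, 0 and 4 genes at an unadjusted p under 0.05, against 3.92%, 10.7% and 15.4% of all genes. The calls of *Znfx1*, *Uba7*, *Il10rb*, *Tlr9*, *Gbp4*, *Gbp9* and, in both comparisons, *Sp100* were kept when any single mouse was left out.

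**Figure D5:**
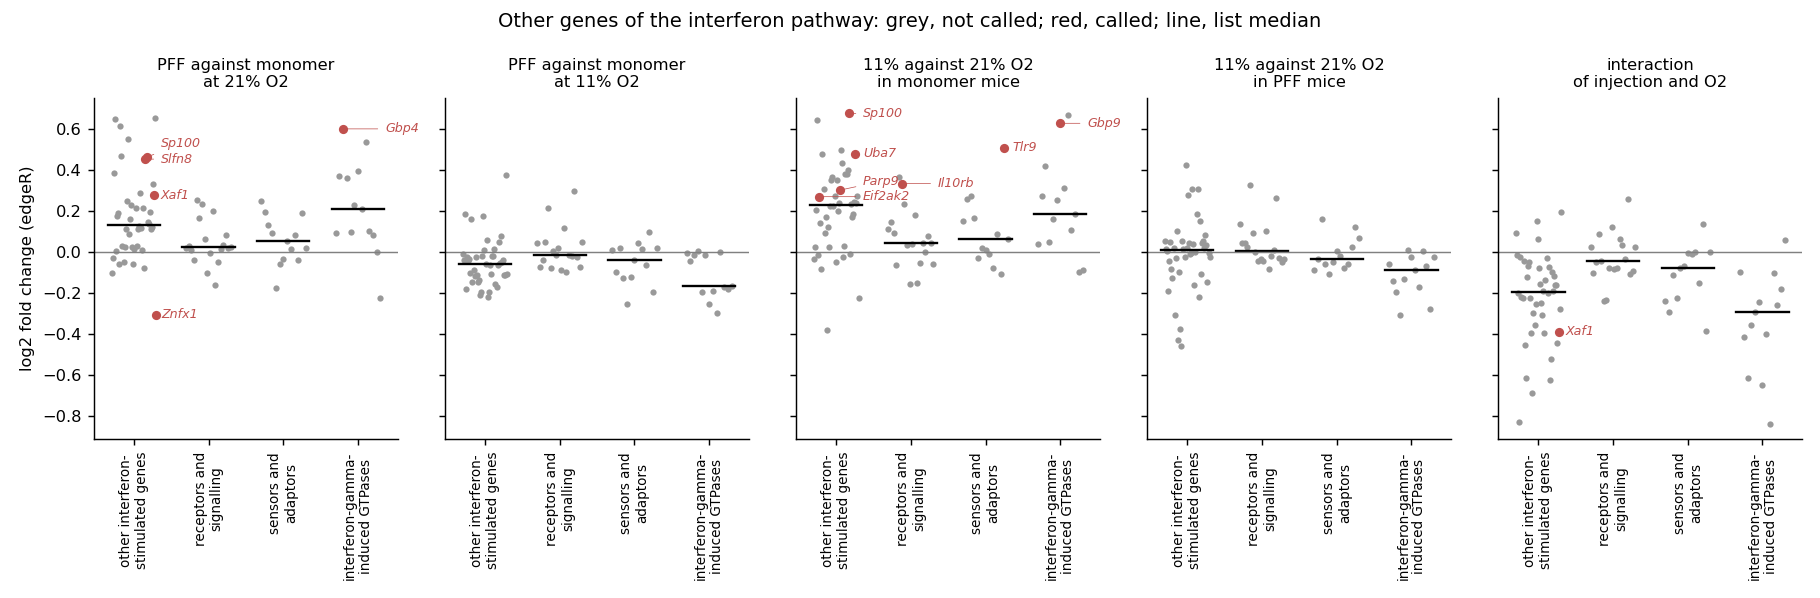
Log2 fold change of each tested gene in 4 lists of the interferon pathway and the 5 comparisons, red where called and grey where not, with a line at the list's median. Called genes appear for PFF at 21% O2 (*Sp100*, *Xaf1*, *Slfn8* and *Gbp4* above 0, *Znfx1* at -0.30), for 11% O2 in monomer mice (*Sp100*, *Uba7*, *Parp9*, *Eif2ak2*, *Il10rb*, *Tlr9* and *Gbp9*, all above 0) and for the interaction (*Xaf1* at -0.39).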

How the data were processed

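The authors removed ribosomal reads, aligned the rest with STAR 2.7.5a to mm10 and counted them per GENCODE vM24 gene with featureCounts 2.0.1, assigning multimapping reads by their primary alignment. They deposited raw read counts and TPM for 55385 genes in 48 mice, and ComBat-seq batch-corrected counts and TPM for 19601 genes in 42 mice. The authors' DESeq2 results were not used.

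Samples were grouped by the injection and O2 labels, 1 mouse each. Batch-corrected counts were tested with edgeR 4.0.16 (R 4.3.3): TMM, filterByExpr by group, and quasi-likelihood tests from 1 model of the 4 groups without a batch term. A call needed both a Benjamini-Hochberg adjusted p below 0.05, over 14839 genes, and an absolute log2 fold change above 0.25. Intervals are the estimate ± 1.96 SE. Within-batch values come from counts before correction. Correlations used log2 CPM (prior count 2) less the group mean. Scripts were tested on simulated data.

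The 9 genes and all lists were chosen with earlier results of these data known. All 9 are named. From each pathway list, the called genes of a comparison are named, at most 6 by smallest p, or with none called the 2 with the smallest p, and of the genes most like the 9, the first 12. Other markers are given by list. As alternatives, DESeq2 1.42.0, edgeR with DESeq2 size factors, edgeR without the low-count filter, batch as a covariate on uncorrected counts of 42 or 48 mice, a replicate block, limma 3.58.1 on log2(TPM + 1) or log2(TPM + 0.1), also at a mean TPM of at least 1, and each batch alone were run. Leaving out each mouse and the marker correlations were added after seeing the data. Promoters are RefSeq windows on GRCm38.p6, and gene positions are of GRCm38.

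Total counts before correction ranged from 3134594 to 17120921 per mouse. Members had between 14 and 1026 counts per mouse in the corrected table.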

Additional observations from a re-analysis of the deposited data

Results flagged for a closer look

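In groups of 9 and 10 mice, single mice stood apart from the rest by Dixon's criterion for the gap to the nearest mouse over the group's range. PFF 11% O2 replicate 8 had 12.6 TPM of *Ifit1* where the next mouse had 7.52 TPM, 6.68 TPM of *Irf7* (next 4.48 TPM) and 153 TPM of *Ifi27* (next 131 TPM). Monomer 11% O2 replicate 10 had 15.2 TPM of *Ifit1* (next 9.45 TPM), 11.5 TPM of *Usp18* (next 7.14 TPM) and 7.85 TPM of *Rsad2* (next 4.08 TPM). These are 6 of the 18 combinations of gene and group that were looked at, and chance gives about 1 in 20 for normally distributed values. The criterion was applied to TPM without a log scale, and a normal distribution was not tested, so this share is only a guide. The 9 genes vary together between mice, so the 6 are not independent of each other.

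The effect of PFF on *Xaf1* differed between 11% and 21% O2 by the interaction term, at -0.39 on the log2 scale (edgeR adjusted p = 0.0296). It was called in 5 of 10 alternatives and not with batch as a covariate on uncorrected counts.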

How the results depend on the processing

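No member was called in any of the 5 comparisons by DESeq2, by its size factors in edgeR, without the filter, by limma, with batch as a covariate, or in any batch alone. The exceptions concerned 11% against 21% O2 in monomer mice. With the replicate number as a block, 1 member was called, *Irf7* at 0.59 (adjusted p = 0.0468). When 1 mouse at a time was left out, between 0 and 2 were called, the 2 being *Oasl2* and *Irf7* without monomer 21% O2 replicate 12. The study matched mice across treatments by weight, age, delivery date and cage, but no source used here ties these pairs to the replicate numbers. The deviations of same-numbered mice correlated at between -0.40 and 0.56 (median 0.0033, 21 of 54 pairs over 0.1), so the block result is given here only.

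Signs of single genes turned as follows, in log2 fold change, apart from the fits without 1 mouse. With the replicate block, *Bst2* was at -0.075 for PFF at 11% O2 and *Isg15* at -0.045 for the interaction. With limma, for 11% O2 in PFF mice, *Ifi27* was at 0.0057, or 0.0058 with a pseudocount of 0.1, and *Usp18* at 0.023 or 0.031. In batch 1 alone, *Bst2* was at -0.046 and *Rsad2* at 0.60 for PFF at 11% O2, *Rsad2* at -0.042 for 11% O2 in PFF mice, and *Isg15* at -0.18 for the interaction. In batch 2 alone, PFF at 21% O2 gave *Bst2* -0.066, *Ifi27* -0.13, *Ifit1* -0.22, *Irf7* -0.0088, *Isg15* -0.28, *Rsad2* -0.16 and *Usp18* -0.18, and 11% O2 in PFF mice gave *Bst2* 0.23, *Ifi27* 0.18, *Ifit1* 0.64, *Ifit3* 0.073 and *Usp18* 0.34. In batch 3 alone, PFF at 11% O2 gave *Bst2* -0.013, *Ifi27* 0.018 and *Isg15* -0.11, and 11% O2 in PFF mice gave *Irf7* -0.18, *Oasl2* -0.25 and *Rsad2* -0.19. With 48 mice and batch as a covariate, PFF at 11% O2 gave *Bst2* -0.0061, *Ifit1* 0.081, *Irf7* 0.042, *Oasl2* 0.0031 and *Rsad2* 0.16, and 11% O2 in PFF mice gave *Bst2* 0.0018, *Ifi27* 0.059, *Ifit1* 0.14 and *Usp18* 0.12. Without 1 mouse, 14 of the 45 values turned in at least 1 fit, among them *Bst2* (down to -0.036) and *Ifit1* (-0.0055) for 11% O2 in monomer mice, *Usp18* (up to 0.11) for 11% O2 in PFF mice, and *Isg15* (down to -0.075) and *Rsad2* (0.011) for the interaction. The causes were not tested. The single-batch fits hold fewer mice. Apart from these, the replicate block and the fits without 1 mouse, *Ifit3* for PFF at 21% O2 came closest to a call. Its edgeR adjusted p was 0.0561, with batch as a covariate in 42 mice. For 11% O2 in monomer mice the smallest was that of *Oasl2*, an edgeR adjusted p of 0.0768 with the same covariate in 42 mice. By DESeq2 it was that of *Irf7* (adjusted p = 0.0822).

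Among the other pathway genes, *Znfx1* was called for PFF at 21% O2 in 10 of 11 alternatives, *Sp100* in 8, *Gbp4* in 7, *Xaf1* in 6 and *Slfn8* in 3. For 11% O2 in monomer mice, *Sp100*, *Uba7*, *Il10rb*, *Tlr9* and *Gbp9* were each called in 9 of 10, all except batch 1 alone, and *Eif2ak2* and *Parp9* in 2. The spread between mice was larger for the 9 genes than for most genes tested, and its share in the imprecision was not tested.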
